A study of Mus musculus with 9 samples.

Results

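The let-7 family was measured in cultured hippocampal neurons on 9 miRNA microarrays, 3 for each of 3 conditions. Its members were taken by name, as the mature mouse miRNAs mmu-let-7a, mmu-let-7b, mmu-let-7c, mmu-let-7d, mmu-let-7e, mmu-let-7f, mmu-let-7g, mmu-let-7i and mmu-miR-98 (the species prefix mmu is left out from here on), and all 9 were found among the 650 miRNAs printed on the array. The neurons came from C57BL/6 mice on postnatal day 1 and had been in culture for 10 days, in a medium that contained rat serum until it was replaced before the drugs were added. Each array of a condition was hybridised with total RNA of a separate cell preparation. Control neurons received no drug. NMDA neurons were labelled as given 20 µM N-methyl-D-aspartate, which opens NMDA-type glutamate receptors both at and outside synapses, with RNA taken at 4 h. The study's text describes a brief exposure that was washed out and also names a higher NMDA concentration, so the concentration used here is that of the labels. Bicuculline neurons were given 50 µM of this blocker of GABA-A receptors for 4 h, which releases the neuronal network from inhibition and drives synaptic firing.

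A miRNA guides a silencing complex to messenger RNAs mainly through its seed, the bases next to its 5′ end that pair with sites in the target. The let-7 family was first known from the timing of larval development in the nematode, and in mammals its members are scarce in stem cells and accumulate as cells differentiate, while the RNA-binding proteins LIN28A and LIN28B hold back the maturation of let-7 precursors. Mature let-7 miRNAs are among the abundant miRNAs of postmitotic neurons.

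The mature sequences are shown because members that differ in few bases can share signal on a hybridisation array, which bears on every value that follows. They were taken from RefSeq (mouse build GRCm38.p6), where all 9 members were matched, are written 5′ to 3′ and carry the seed, bases 2 to 8, in capitals.
let-7a: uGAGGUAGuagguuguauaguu
let-7b: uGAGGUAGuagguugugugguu
let-7c: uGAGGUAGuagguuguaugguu
let-7d: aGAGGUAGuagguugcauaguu
let-7e: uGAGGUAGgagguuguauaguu
let-7f: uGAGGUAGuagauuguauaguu
let-7g: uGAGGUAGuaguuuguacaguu
let-7i: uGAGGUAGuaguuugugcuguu
miR-98: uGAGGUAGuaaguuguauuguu

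All 9 members had 22 bases and the same seed. The seed occurred in 11 of 1674 distinct mature sequences listed by RefSeq, and the other two were let-7k and miR-1961. With let-7a as the reference and positions counted from 1 at the 5′ end, let-7c differed by A19G, let-7e by U9G and let-7f by G12A. A pair of substitutions set apart let-7b (A17G, A19G), let-7d (U1A, U16C), let-7g (G12U, U18C) and miR-98 (G11A, A19U). let-7i was the most distant from let-7a, with G12U, A17G, U18C and A19U. Each substitution lay outside the seed.

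The genes are scattered over the genome, several of them side by side, with positions from RefSeq on GRCm38.p6. On the minus strand of chromosome 13, Mirlet7d (chr13:48536012-48536114), Mirlet7f-1 (chr13:48537829-48537917) and Mirlet7a-1 (chr13:48538179-48538272) were separated by 1714 and 261 bases. Mirlet7c-2 and Mirlet7b lay 621 bases apart on the plus strand of chromosome 15 (chr15:85706603-85706697 and chr15:85707319-85707403). On the plus strand of chromosome X, Mirlet7f-2 (chrX:151912346-151912428) and Mir98 (chrX:151913214-151913321) were 785 bases apart. The remaining genes sit next to those of other miRNA families or alone. Mirlet7c-1 followed Mir99a by 656 bases (chr16:77599657-77599750), Mir125a followed Mirlet7e by 367 bases (Mirlet7e at chr17:17830352-17830444), and Mirlet7a-2 followed Mir100 by 5211 bases (chr9:41536716-41536811). Mirlet7g (chr9:106178840-106178927) and Mirlet7i (chr10:122985640-122985724) had none of these genes within such a distance. The miRNAs let-7a, let-7c and let-7f are each made by more than one gene, so that the array cannot tell which gene gave the signal.

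Each member was read from the brighter of its 2 probes, each printed in 10 spots. Signals are given as a percentage of the array's scale, namely the 75th percentile over 265 probes whose spots stood well above background on each of the 9 arrays. A value above 100% was thus brighter than that probe. Differences are on the log2 scale. Because probes differ in how strongly they hybridise, a level of one member was not set against that of another.

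All 9 members were well above background on all 9 arrays and no spot was saturated. Their signals lay between 6.82 times (miR-98) and 526 times (let-7c) the lowest detected signal of the same array. The brighter probes of the family together carried 28.2 to 33.5% of the summed brightness of all miRNAs, each counted once, which is a share of light and not of molecules. In control neurons let-7a had a signal of 1878% ± 143 of the scale (SD, n = 3), let-7c of 2335% ± 162 and miR-98 of 62.0% ± 2.54. As the arrays hold RNA of whole cultures, fewer cells of a type and less RNA per cell could not be told apart.

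Signals of let-7a were 1801, 1789.6 and 2042% of the scale in control neurons, 1694, 1693 and 1948% after NMDA, and 1608, 1816 and 2091% after bicuculline. Those of let-7g were 459, 421 and 532% in control neurons, 427, 399 and 546% after NMDA, and 412, 433 and 575% after bicuculline. For both miRNAs the third array of every condition was the highest of its group and the 3 conditions overlapped. let-7b gave 1073, 1122 and 1243% in control neurons, 1111, 1114 and 1258% after NMDA, and 1046, 1024 and 1312% after bicuculline, again with the third array on top. miR-98, the dimmest signal of the family, gave 64.3, 59.3 and 62.3% in control neurons, 60.9, 60.4 and 63.9% after NMDA, and 56.6, 62.8 and 57.2% after bicuculline. Here the third array did not stand out in control or bicuculline neurons, and its lowest value came from the first bicuculline array.

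In the other five members too, the third array of every condition was the highest of its group. let-7c ranged from 2087 to 2686% over the 9 arrays and let-7f from 1375 to 1697%. let-7d ranged from 405 to 573%, let-7e from 346 to 472% and let-7i from 336 to 433%. The ratio of the highest to the lowest array was 1.14 for miR-98 and reached 1.44 for let-7g. Groups of arrays given different treatments overlapped for every member.

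**Figure D1:**
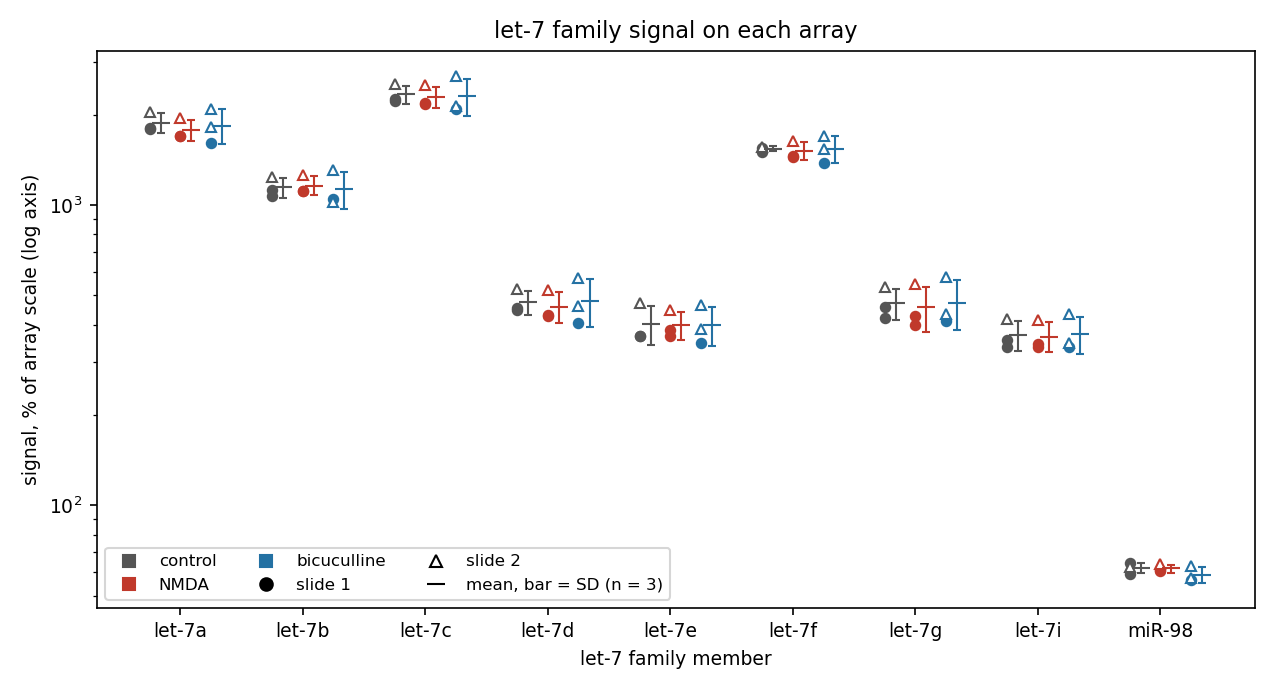
Signal of each let-7 family member on each of the 9 arrays, as a percentage of the array scale on a log axis, with the mean and SD of each condition (n = 3). Filled circles are arrays of slide 1 and open triangles arrays of slide 2. The 3 conditions overlap for every member, and apart from miR-98 the highest array of each condition is on slide 2.

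Exposure to NMDA left the let-7 family within the spread between arrays. Of the 9 members, 0 passed limma's test at an adjusted p of 0.05 (two-sided, Benjamini-Hochberg over 181 miRNAs), against 15 of the 181 miRNAs tested (8.29%), all of them higher. None of the members reached an unadjusted p below 0.05 either, which 20 of 181 miRNAs did (11%). In 0 of 9 members were the NMDA arrays clear of the control arrays, compared with 14.9% of all miRNAs tested. A change of more than 1.2-fold, the limit the study used, was seen in 0 of 9 members and in 9.94% of miRNAs upward and 1.1% downward. These shares include miRNAs detected on all arrays of NMDA neurons only, and several of those called lay at the floor in control neurons. The members were detected on every array. Among the 157 miRNAs detected on all arrays compared, limma called 3, and 8 had an unadjusted p below 0.05.

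The largest NMDA difference in the family was that of let-7a, -0.08 on the log2 scale (SE 0.10, 95% CI -0.31 to 0.15, adjusted p 0.991), or -5.33%. let-7b had the single positive value, 0.02 (SE 0.09). let-7g had the widest interval, from -0.38 to 0.29 around a difference of -0.05. The median over the members was -0.03, beside -0.01 over all miRNAs tested. The intervals of the 9 members together spanned -23.3% to 22.8%, and 4 of 9 lay wholly inside a 1.2-fold change either way.

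The intervals narrowed when the slide an array lay on was taken into account. With slide as a block, the member differences after NMDA were the same and all 9 intervals lay inside 1.2-fold, from -13.6% to 9.67%. Same-numbered control and NMDA arrays also deviated together, and with the replicate number as a block the intervals ran from -12.0% to 9.37%. The smallest adjusted p among the members was then 0.386 (let-7a). Within the pairs, let-7a was lower after NMDA in 3 of 3, by -0.09, -0.08 and -0.07, and let-7c and let-7d were lower in 3 of 3 as well. These 3 of 9 members compare with 23.8% of all miRNAs tested that were lower in every pair, while 0 of 9 members and 18.2% of miRNAs were higher in every pair. The direction depended on the probe and the processing. Read from its dimmer probe, let-7a differed by 0.01 after NMDA. With the authors' normalized values 8 members were higher after NMDA and 1 lower, with a median of 0.02 against -0.05 for all miRNAs.

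Bicuculline likewise gave no call in the family. Of the 9 members 0 passed the test (limma, adjusted p 0.05) and 0 had an unadjusted p below 0.05, where 1 of 161 miRNAs was called (0.621%) and 2 had an unadjusted p below 0.05 (1.24%). In 0 of 9 members were the groups clear of each other, against 3.11% of miRNAs. More than a 1.2-fold change was seen in 0 of 9 members, 1.24% of miRNAs upward and 1.86% downward. The largest difference was that of miR-98, at -0.08 (SE 0.09, 95% CI -0.28 to 0.13, limma adjusted p 0.999), or -5.08%. For let-7g the difference was 0.00 (SE 0.15), with an interval of -21.2% to 26.7%. The median of the members was -0.01 and that of all miRNAs -0.02.

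The bicuculline values moved when slide was taken into account. Of the 3 bicuculline arrays 2 lay on slide 2, and of the 3 control arrays 1 did. With slide as a block all 9 differences were negative, between -0.12 (let-7e) and -0.05 (let-7f), with a median of -0.09 against -0.02 for all miRNAs. The members' median was -0.10 on slide 1 alone and -0.07 on slide 2 alone. In that fit let-7d and let-7i turned from 0.01 and 0.01 to -0.09 and -0.07. The lowest unadjusted p was 0.251, the adjusted p was 0.997 for each member, and the intervals reached from -22.9% to 14.03%. Every one of these 9 intervals held both 0 and a 1.2-fold decrease.

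Set against each other directly, NMDA and bicuculline neurons did not separate the family. Limma called 0 of 9 members, compared with 16 of 181 miRNAs (8.84%), of which 15 were higher (8.29%) and 1 was lower (0.552%) after NMDA. The members with an unadjusted p below 0.05 numbered 0, against 24 of all miRNAs (13.3%), and 0 of 9 members but 24 miRNAs (13.3%) had groups that did not overlap. More than a 1.2-fold change was seen in 0 of 9 members, 11% of miRNAs upward and 2.76% downward. Here too the shares include miRNAs detected on all arrays of 1 condition only. Among the 158 miRNAs detected on all arrays compared, limma called 4 higher and 1 lower, and 13 had an unadjusted p below 0.05. The largest difference, NMDA minus bicuculline, was 0.07 for miR-98 (SE 0.08, 95% CI -0.12 to 0.26, adjusted p 0.990). The median was -0.02 for the members and 0.00 for all miRNAs. With slide as a block the 9 differences were all positive, from 0.04 (let-7a) to 0.10 (let-7b), with a smallest adjusted p of 0.864 (limma). Their median was 0.06, against 0.01 for all miRNAs. This comparison uses the same NMDA and bicuculline arrays as the other two.

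**Figure D2:**
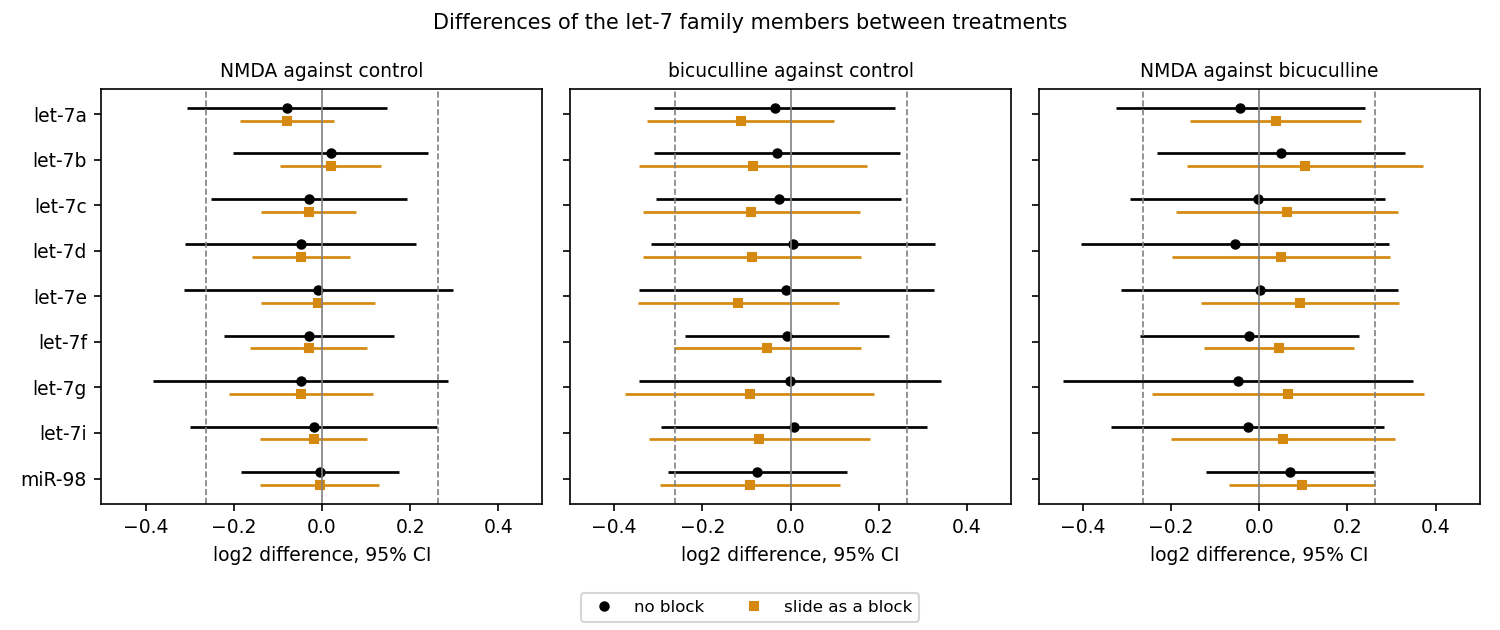
Log2 difference of each let-7 family member in the 3 comparisons, with 95% confidence intervals from limma, without a block (black circles) and with slide as a block (orange squares). Dashed lines mark a 1.2-fold change either way, and every interval includes 0. All 9 intervals for NMDA against control lie inside the dashed lines with slide as a block, where 4 did without it.

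Ordering the 3 conditions by their mean level, without regard to slide, gave no common order. NMDA neurons had the lowest mean for 6 members and bicuculline neurons for let-7b, let-7e and miR-98. The gap between the highest and lowest condition was below the median SD within conditions for 8 of 9 members. The exception was miR-98, with a gap of 0.08 (control above bicuculline) against an SD of 0.06. With slide as a block bicuculline lay below control and below NMDA in 9 of 9 members, none of these differences passing the test. Slide 1 held a single bicuculline array. The members other than miR-98 varied together from array to array, so their shared sign does not count as separate results. The mean log2 level over the family was 2.65 ± 0.11 in control, 2.63 ± 0.13 in NMDA and 2.63 ± 0.18 in bicuculline neurons (SD, n = 3).

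The same arrays did register treatment responses of other miRNAs. After NMDA miR-689 rose by 3.25 on the log2 scale (limma, adjusted p 0.00031). The study had found its strongest rise for this RNA on the same arrays, so the call is no independent check. It also reports that the status of miR-689 as a true miRNA is debated. A rise of this size does not show that a change near 1.2-fold would be found. After bicuculline miR-212, a miRNA induced by neuronal activity, rose by 1.98 (limma, adjusted p 0.0228), with 1 control array at the floor of the scale. This call was lost without bicuculline 1, without bicuculline 2, with quantile normalization, with the scanner software's own sum per miRNA (total gene signal), with no filter on detection and in the methods' t-test. A stricter filter, detection on all arrays compared, left miR-212 untested, as it was detected on only 2 control arrays. miR-132, which is encoded beside miR-212 and also follows neuronal activity, differed by 0.64 and was not called (limma, adjusted p 0.386).

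The arrays themselves differed more than the treatments. They lay on 2 slides, with control 1, control 2, NMDA 1, NMDA 2 and bicuculline 1 on slide 1 and the rest on slide 2. Within each condition all 9 members were higher on slide 2. The median difference, slide 2 minus slide 1, was 0.19 in control (range 0.01 to 0.36), 0.20 in NMDA (0.08 to 0.40) and 0.23 in bicuculline neurons (0.08 to 0.34). Over all 156 miRNAs detected on every array the corresponding medians were 0.03, 0.01 and 0.02, and 52.6 to 56.4% of them were higher on slide 2. For 8 of 9 members, miR-98 being the exception, the slide difference in every condition exceeded any treatment difference of that member as fitted without a block.

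let-7g moved most between the slides, by 0.40 in NMDA neurons, and let-7e by 0.36 in control neurons. let-7f moved by 0.03 in control but 0.23 in bicuculline neurons. Averaged over the members, the deviation from each member's own mean was 0.14 on control 3, 0.14 on NMDA 3 and 0.19 on bicuculline 3. On bicuculline 2, which shares their slide, it was -0.05, close to -0.04 on control 1 and -0.06 on control 2. The lowest was bicuculline 1, at -0.16. Thus 7 of 9 members had their highest value on bicuculline 3 and 6 of 9 their lowest on bicuculline 1, which widened the bicuculline group.

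**Figure D3:**
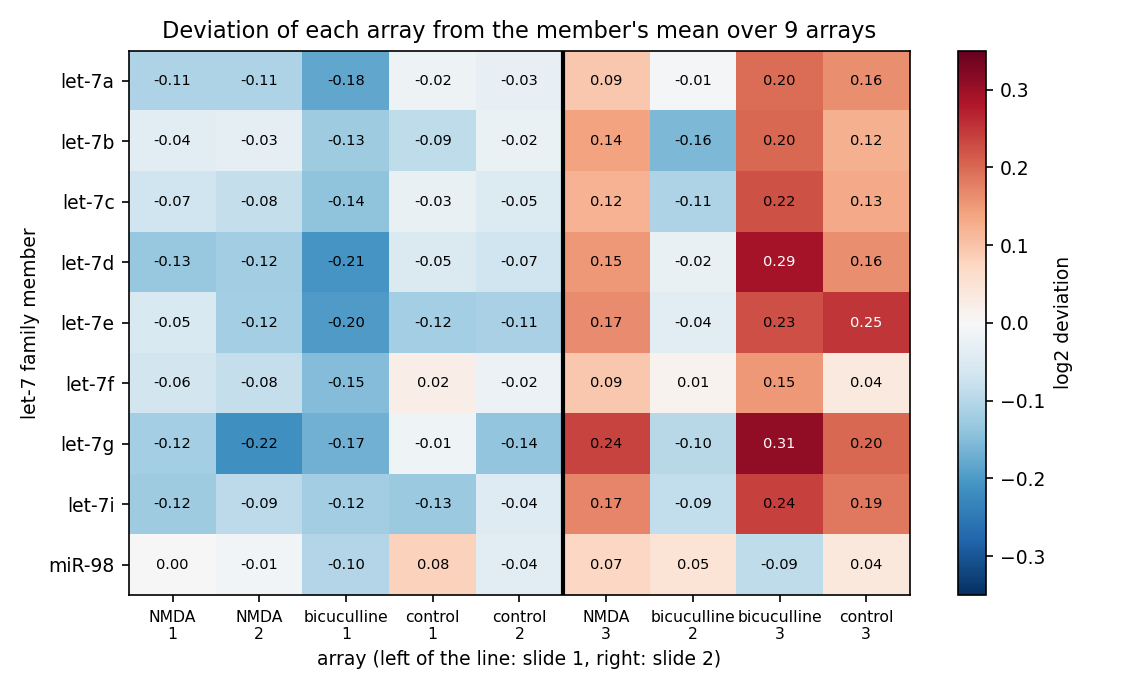
Log2 deviation of each let-7 family member on each array from that member's mean over the 9 arrays, in color and in print, with the 5 arrays of slide 1 left of the line and the 4 of slide 2 right of it. Blue fills most cells on slide 1 and red those of control 3, NMDA 3 and bicuculline 3, apart from miR-98 on bicuculline 3 (-0.09), while bicuculline 2 resembles slide 1.

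Bicuculline 3 had the lowest scale signal of the 9 arrays, 416 against 496 to 645 on the others. Before scaling, 8 of 9 members had their lowest signal there, and 8 of 9 their highest on NMDA 3. The position of these arrays thus depended on the scale. In the slide difference the members lay 0.16, 0.19 and 0.22 above the median of all miRNAs in control, NMDA and bicuculline neurons, a distance that a single scaling factor per array cannot alter. Methods that can alter it differed in their result. With the total gene signal the distance was 0.19, 0.30 and 0.31. With normexp background correction it was 0.17, 0.28 and 0.22, and with the mean of all probes 0.13, 0.18 and 0.22. After quantile normalization the distance was 0.01, 0.00 and 0.01, with 4, 4 and 1 members higher on slide 2. That method sets each value by its rank on the array. A bright member that keeps its rank then shows no slide difference, so these values cannot decide whether there was any. With the authors' normalized values it was 0.02, 0.08 and -0.06, with 6, 6 and 1 members higher there.

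Bicuculline was the one condition with a second array beside the third on slide 2. Within that slide bicuculline 3 exceeded bicuculline 2 in 8 of 9 members, by a median of 0.32, and miR-98 was lower by -0.13. Across the slides bicuculline 2 exceeded bicuculline 1 in 8 of 9 members, by a median of 0.15, with let-7b at -0.03. In control and NMDA neurons the third array was the only one on slide 2, so that the slide cannot be told apart from that array there. The slides also differed in the version of the scanner software.

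The slide difference also depended on the probe. Averaged over the conditions it had a median of 0.22 for the brighter probes (0.06 to 0.32) and 0.09 for the dimmer ones (0.01 to 0.15), and the brighter probe showed more of it in 8 of 9 members, with miR-98 again the exception. Read from the dimmer probe, let-7a in control neurons was lower on slide 2, by -0.18, where the brighter probe gave 0.19. With the dimmer probes 4 of 9 members were higher on slide 2 in control, 8 in NMDA and 9 in bicuculline neurons. The probe sequences were not used here, so it was not tested which bases each probe covers.

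**Figure D4:**
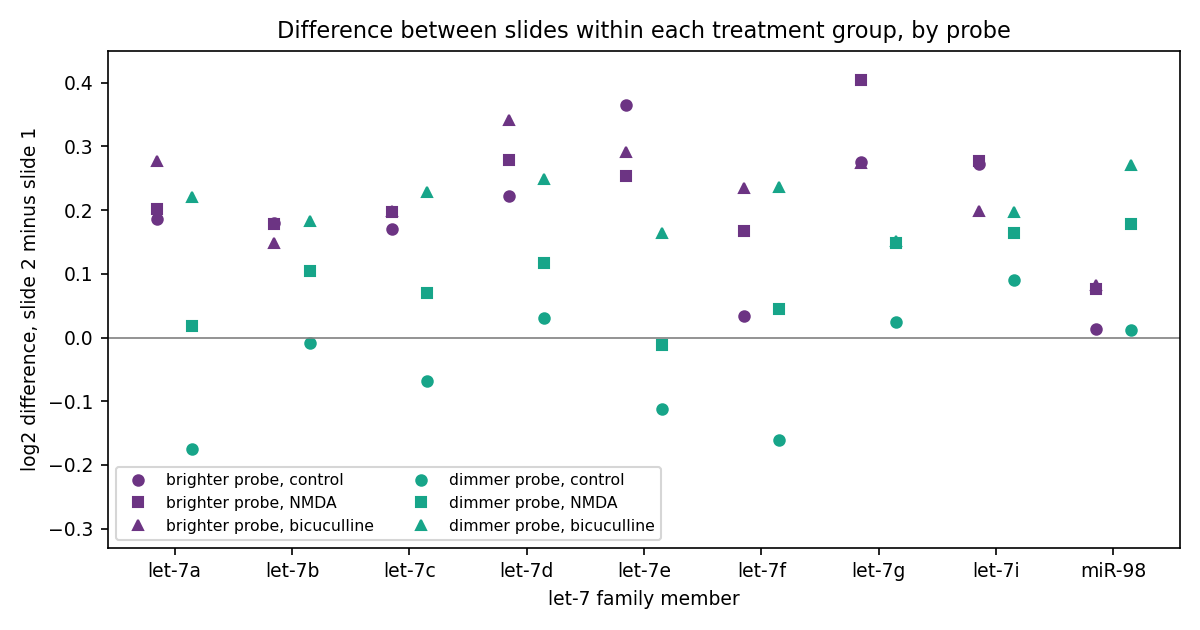
Log2 difference between slides, slide 2 minus slide 1, for each member within each treatment condition, with the brighter probe in purple and the dimmer probe in green. All purple points are above 0, while green points of the control condition fall as low as -0.18.

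Treatment differences were small on either probe of a member, and the gap between the probes was about as large as the differences themselves. Over 27 differences, 9 members in 3 comparisons, the probes gave values at most 0.10 apart, with a median gap of 0.03. The sign was the same in 18 of 27, as most values lay near 0. With every member read from its dimmer probe, the largest NMDA difference was -0.09 (let-7d) and the smallest adjusted p over the 3 comparisons was 0.988 (limma). The correlation of both probes over the 9 arrays ran from 0.25 for let-7a and 0.26 for let-7e to 0.92 for let-7i.

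Taken over all members, the spots of a probe scattered less than replicate arrays did. The coefficient of variation between spots had a median of 5.99% (1.87 to 28.2%) and that between replicate arrays a median of 10.6% (2.08 to 18.7%). miR-98 was an exception, with 3.06 to 5.82% between replicate arrays and, in NMDA neurons, 4.11 to 11.5% between spots. The tightest group was let-7f in control neurons (1541% ± 32.0, SD, n = 3) and the loosest let-7g in bicuculline neurons (473% ± 88.3). Spots scattered less on slide 1 (median 5.0%) than on slide 2 (8.73%), and the widest scatter, 28.2%, was that of miR-98 on bicuculline 3, where its signal before scaling was lowest.

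Members varied together from array to array, except for miR-98. Over the 9 arrays the 28 pairs of let-7 miRNAs had Pearson correlations of 0.74 to 0.98, with a median of 0.93. The 8 pairs with miR-98 ran from -0.05 to 0.29. For 10731 pairs of other miRNAs the median was 0.01, with a range of -0.97 to 0.99, so strong correlations of either sign occurred outside the family too. These are descriptions over arrays that share slide, scale and cell preparation. The correlation did not follow the number of bases at which the sequences printed above differ: its median was 0.94 for the 4 pairs 1 base apart, 0.91 for 8 pairs 2 bases apart and 0.95 for the pair 6 bases apart.

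**Figure D5:**
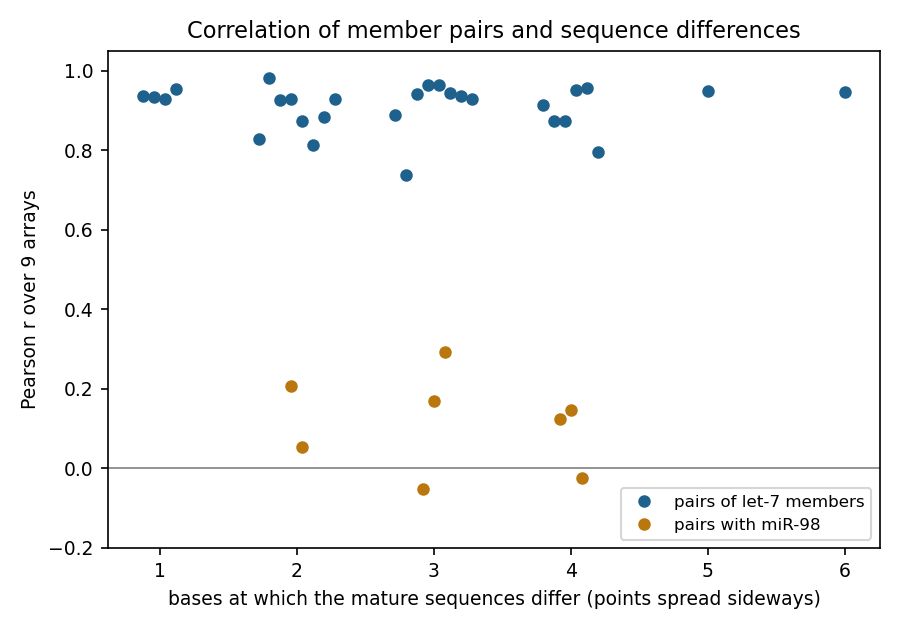
Pearson correlation over the 9 arrays for each of 36 member pairs, against the number of bases at which their mature sequences differ. Pairs among let-7 miRNAs (blue) lie between 0.74 and 0.98 at every number of differences, and the 8 pairs with miR-98 (orange) between -0.05 and 0.29.

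Outside the family, the 3 miRNAs whose log2 level most resembled the family mean over the 9 arrays were miR-598 (r = 0.98), miR-128 (r = 0.95) and miR-342-3p (r = 0.95). Of 147 miRNAs compared, 7 exceeded 0.9 and the median was 0.01. After NMDA they differed from control by -0.05, 0.01 and -0.06, and after bicuculline by -0.04, 0.01 and -0.03, and none was called.

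The passenger strands are the arms of the let-7 hairpins that are mostly discarded when the mature miRNA is loaded. The array held 7 of them (let-7a*, let-7b*, let-7c-1*, let-7d*, let-7f*, let-7g* and let-7i*), of which 0 were well above background on any array, so that none was tested. They lay at the floor of 7.94% of the scale, apart from let-7d* on 1 control array (8.68%).

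The miRNAs encoded beside let-7 genes, miR-99a, miR-99b, miR-100, miR-125a-5p and miR-125b-5p, were all detected, and 0 of 5 were called in any comparison (limma). miR-99a, from the gene next to Mirlet7c-1, had signals of 315% ± 10.8, 328% ± 16.0 and 328% ± 26.0 in control, NMDA and bicuculline neurons (SD, n = 3). miR-125a-5p, from the gene next to Mirlet7e, had signals of 202% ± 17.8, 196% ± 10.7 and 193% ± 36.2. Their median differences were 0.00 after NMDA (-0.05 to 0.07) and -0.05 after bicuculline (-0.10 to 0.05), close to those of all miRNAs.

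The labelled cell type was checked against marker miRNAs. The lists held none for astrocytes, so the presence of these cells was not checked. All 5 neuronal miRNAs (miR-124, miR-9, miR-128, miR-137 and miR-138) were detected on every array, with summed signals of 3304 to 3375% of the scale in control, 3061 to 3329% in NMDA and 3013 to 3302% in bicuculline neurons. Of 5 miRNAs of microglia and blood cells (miR-142-3p, miR-142-5p, miR-223, miR-451 and miR-144) 0 were detected, all at the floor. Of 2 oligodendrocyte miRNAs miR-338-3p was detected and miR-219 was not. Of 4 endothelial and vascular miRNAs none was detected on all arrays of a condition, and of 3 muscle miRNAs miR-1 was. Of these miRNAs 5 neuronal ones, miR-338-3p and miR-1 were bright enough to be tested, and 0 of them were called in any comparison (limma).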

How the data were processed

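Total RNA of 3 control, 3 NMDA and 3 bicuculline cultures was hybridised to 1-colour Agilent mouse miRNA arrays. The deposited files hold spot intensities that Agilent Feature Extraction (10.7.1.1 on slide 1, 10.7.3.1 on slide 2, per the file headers) had corrected for background. The authors also deposited a table of log2 values with array medians of 7.06 to 7.08, whose normalization is not given in the sources used here. It was used as an alternative. The precision of a level is limited by the number of arrays.

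Spots carrying an outlier flag (3278) and control spots were left out, spots were averaged per probe, and a miRNA was read from its brightest probe. Intensities were divided by the 75th percentile of 265 detected probes, 18 of them of the family, raised to a floor of 7.94% of that scale, the median over arrays of the lowest detected signal, and log2-transformed. A probe was detected where at least 50% of its spots were well above background. miRNAs detected on all 3 arrays of at least 1 group were tested with limma 3.58.1 (R 4.3.3) on the 6 arrays compared, two-sided, with Benjamini-Hochberg adjustment over all miRNAs tested and a threshold of 0.05. The test was run on simulated data with independent noise of equal spread and changes much larger than 1.2-fold. It was not checked for changes near 1.2-fold or for deviations that miRNAs share on an array. Python 3.11.15 was used for the rest.

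Groups followed the sample titles. Same-numbered control and NMDA arrays deviated together over 156 miRNAs (correlations 0.36, 0.76 and 0.63), so their numbers were taken to pair them. On slide 1 control 1 with NMDA 2 and control 2 with NMDA 1 gave 0.13 and -0.10. For replicate 3, alone on slide 2 in both groups, pairing and slide could not be told apart. Same-numbered bicuculline arrays deviated with these for replicates 1 and 3, but not for replicate 2, where the bicuculline array lay on the other slide. Replicates of a group correlated at 0.985 to 0.995. The text names all 9 members, the let-7 passenger strands, the miRNAs of neighbouring genes, the 3 miRNAs most correlated with the family mean, marker miRNAs and miRNAs known to respond. The members and lists were chosen with earlier results of these data known. Alternatives changed the scaling, background correction, floor, probe choice, filter, test, blocks and arrays. The reading from the dimmer probe was added after seeing the data.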

Additional observations from a re-analysis of the deposited data

How the results depend on the processing

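In the 675 recomputed values of single members the test result and direction, or the value within its spread, held in 209 for NMDA against control, 220 for bicuculline against control and 197 for NMDA against bicuculline. As the differences lay near 0, a change of sign within the spread counted as held, so these counts do not show a stable direction. For NMDA against control 8 members were lower in the main fit, but 8 were higher with no scaling and 8 with the authors' normalized values. Taking the scale's percentile over every probe, detected or not, moved all miRNAs together. The family median became -0.45 for NMDA against control (all miRNAs -0.43) and -0.50 for NMDA against bicuculline (all miRNAs -0.47). In the latter comparison limma then called 143 miRNAs (16 higher, 127 lower) and 9 of 9 members, 3 of them turned to lower (let-7b -0.43, let-7e -0.48, miR-98 -0.41). With no scaling the family median was -0.16 for bicuculline against control (all miRNAs -0.17) and 0.19 for NMDA against bicuculline (all miRNAs 0.20). With the total gene signal it was -0.22 for NMDA against bicuculline (all miRNAs -0.14).

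In the other settings and comparisons run 0 members were called. With the scale taken over every probe, 5 members had an unadjusted p below 0.05 for NMDA against control (smallest adjusted p 0.0848, limma). With the authors' normalized values 2 members did for NMDA against bicuculline (smallest adjusted p 0.140, limma). For NMDA against control the count of miRNAs called was 24 after quantile normalization (13 higher, 11 lower), 5 with the total gene signal, 3 of 157 when detection on all arrays compared was required and 5 of 650 without a filter. For NMDA against bicuculline quantile normalization gave 14 higher and 9 lower, against 15 and 1, and the other settings gave 8, 5 of 158 and 8 of 650, and the methods' t-test gave 10. For bicuculline against control limma called 0 miRNAs with quantile normalization, the total gene signal, the stricter filter and no filter, with 3, 4, 1 and 4 at an unadjusted p below 0.05, and the methods' t-test called 0, with 4. The stricter filter left untested any miRNA not detected on all arrays compared, miR-212 among them for bicuculline against control. Causes of the other changes in count were not tested. Leaving out 1 array at a time gave 0 to 1 calls for bicuculline against control, with 0 without bicuculline replicate 1 or 2 (8 and 2 at an unadjusted p below 0.05). The family median then ran from -0.10 to 0.03 for NMDA against control, -0.13 to 0.07 for bicuculline against control and -0.10 to 0.09 for NMDA against bicuculline, and the smallest adjusted p of a member was 0.619 (limma).

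With the replicate number as a block, 17 miRNAs were called for NMDA against control, 2 for bicuculline against control and 17 for NMDA against bicuculline, with 0 members in each. In the comparisons with bicuculline, same-numbered arrays correlated at 0.59, 0.08 and 0.72 with control and 0.62, -0.03 and 0.72 with NMDA. The low values were those of replicate 2, whose bicuculline array lay on slide 2 and whose control and NMDA arrays lay on slide 1. Control replicate 2 correlated better with bicuculline replicate 1 (0.33), on its own slide, than with its own number. For replicate 2, a missing pairing and the change of slide could not be told apart. The block changed no other call of a member.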
